A study of Mus musculus with 12 samples.

Results

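The genes described here handle arginine in BV2 mouse microglial cells: 1 nitric oxide synthase (Nos2), the enzyme that remakes the arginine precursor (Ass1), 2 arginases (Arg1 and Arg2), and the genes of polyamine synthesis, its control and its reversal (Odc1, Srm, Sms, Azin1, Oaz1 and Sat1). They were chosen by name, and all 10 were found once each among the 24934 genes of the deposited count table. RNA was sequenced from 12 libraries in 3 groups of 4. The labels list no treatment for Control. OGD stands for loss of oxygen and glucose, here with oxygen restored afterwards, which models stroke in a dish. The Acacetin group is labelled with acacetin, a plant flavone, given at 10 µM. The treatment label of the Acacetin group does not itself mention deprivation. The series' design text places the compound after deprivation and re-oxygenation, and the group was read that way. BV2 is a single line of mouse microglia immortalised with oncogenes. Nothing in the labels tells whether a group's 4 libraries are independent cultures, so the p-values measure the spread between these libraries, which may be technical.

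Arginine stands at a branch point in myeloid cells. Inducible nitric oxide synthase oxidises it to nitric oxide and citrulline, and argininosuccinate synthase and lyase turn the citrulline back into arginine. Arginase instead splits arginine into urea and ornithine, and ornithine decarboxylase makes ornithine into putrescine, from which spermidine and spermine are built. In microglia a high Nos2 level is a usual mark of inflammatory activation and Arg1 of alternative activation.

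Depth was 16427886 to 32693066 counted reads per library, which bounds only counting error. The identity of the cells was checked on fixed marker lists: all 10 myeloid genes averaged over 1 CPM (read counts scaled to library size, with TMM factors between libraries), and their sum ran from 3962 to 4764 CPM in Control, 3415 to 4933 in OGD and 2891 to 4472 in Acacetin. Of the genes with a row, 0 of 3 astrocyte, 0 of 4 neuron and 0 of 3 fibroblast genes averaged 1 CPM. Aqp4, Gja1, Syt1, Mog, Col3a1 and Dcn were also on the lists but had no row under these symbols in the count table. Of 4 oligodendrocyte genes, Cnp (87.2 CPM) and Mbp (1.38 CPM) exceeded it. The share of reads from 18S rRNA was 13.1% in OGD 2 and 21.3% in OGD 3, and between 0.137% and 1.86% elsewhere. A slope on gene length was fitted in each library, as log2 CPM minus the gene's mean over libraries against log2 length. It was lowest in Acacetin 1 (-0.21) and highest in Acacetin 3 (0.30). Values that rest on these libraries are given with and without them where the call differs.

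Per gene length the members spanned a wide range of levels. FPKM (fragments scaled by gene length and library size, the authors' deposited values) averaged 353 ± 54.9 (SD over 12 libraries) for Srm and 350 ± 83.4 for Odc1, which did not differ beyond their spread. Oaz1 followed at 218 ± 34.5, Sat1 at 70.2 ± 13.9, Nos2 at 21.8 ± 13.0 and Sms at 11.2 ± 2.71 FPKM. Ass1 (4.70 ± 1.86) and Azin1 (4.07 ± 2.27) were neighbours whose ranges overlapped, Arg1 averaged 0.776 ± 0.561 FPKM, and Arg2 was at the bottom with 0.0758 ± 0.0448 FPKM. Spermidine synthase was thus read about as often per length as ornithine decarboxylase, and spermine synthase far less.

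Nos2 and Ass1 were the members that fell in OGD. Of 9 members tested, 2 were called lower and 0 higher in OGD against Control, where 12.6% of all 13249 tested genes were called lower and 16.2% higher. In Acacetin against Control 3 were called lower (Nos2, Ass1 and Sat1) and 0 higher, where 12.9% and 14.0% of all genes were. Both comparisons use the same Control libraries. In such bulk samples a smaller share of cells that express a gene and less of its RNA per cell cannot be told apart. In Acacetin against OGD 0 of 9 members were called by edgeR (0 at an unadjusted p under 0.05, and 0 by DESeq2 or limma), where 0% of all genes were called (685 of them at an unadjusted p under 0.05, and 30 called by DESeq2). A gene was called at a Benjamini-Hochberg adjusted p under 0.05 over all tested genes in edgeR's quasi-likelihood test. The members' median log2 fold change was -0.09 in OGD against Control and -0.19 in Acacetin against Control, beside 0.03 and 0.08 over all genes.

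**Figure D1:**
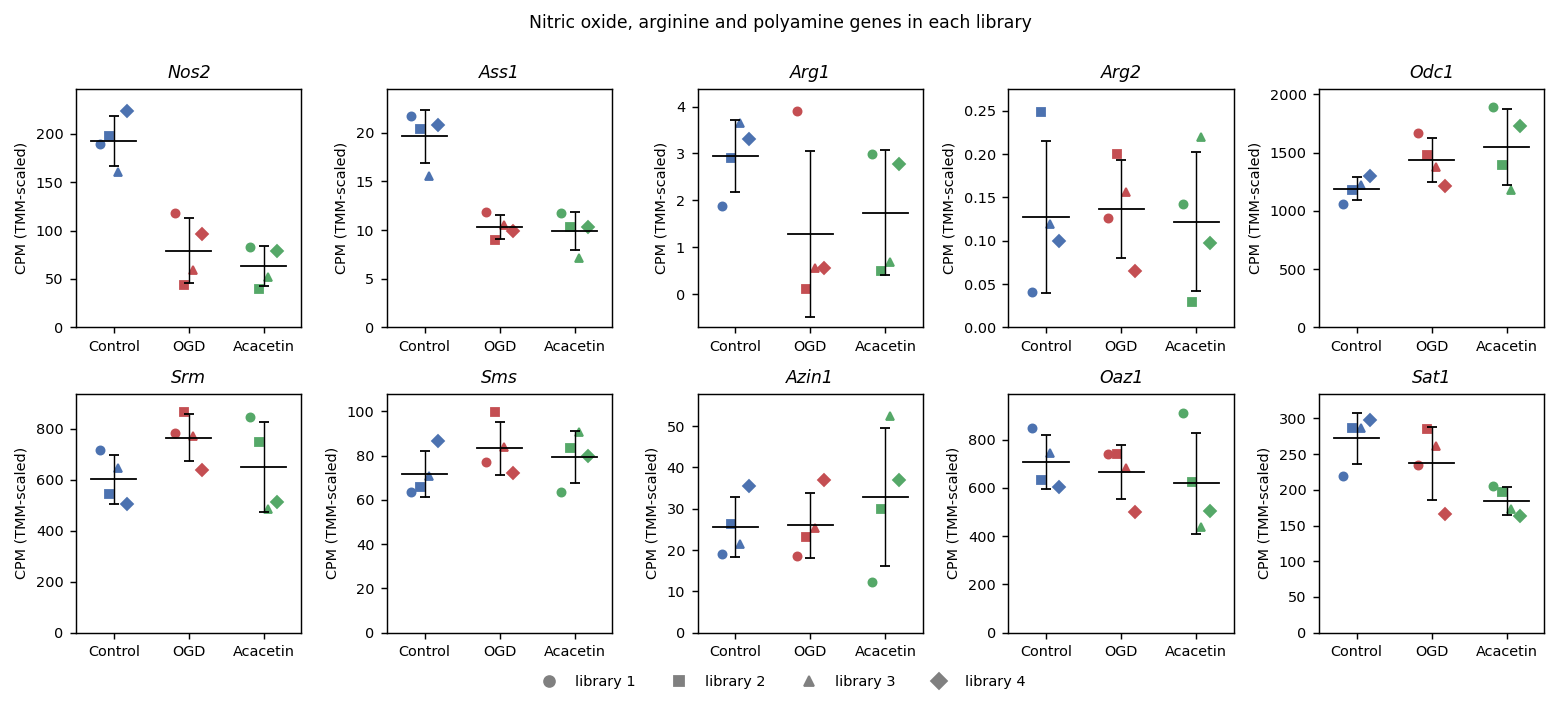
CPM of each of the 10 genes (vertical axes, each with its own scale) in the 12 libraries, coloured by group, with marker shapes for libraries 1 to 4 and bars for the mean and SD. Nos2 and Ass1 are lower in all 8 OGD and Acacetin libraries than in all 4 Control libraries, and Arg1 is spread widely within OGD and Acacetin.

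Nos2 (ENSMUSG00000020826.10, chromosome 11) encodes the inducible synthase that makes nitric oxide in activated microglia. It stood at 189, 198, 161 and 223 CPM in Control 1 to 4. OGD 1 to 4 had 118, 44.1, 59.1 and 96.0 CPM, and Acacetin 1 to 4 had 82.7, 40.1, 52.5 and 78.8 CPM. The lowest Control library was above every other library, while the OGD and Acacetin ranges overlapped.

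The Nos2 mean went from 193 ± 25.9 CPM (SD, n = 4) in Control to 79.2 ± 33.7 in OGD and 63.5 ± 20.6 in Acacetin. Its log2 fold change was -1.28 ± 0.29 (SE, adjusted p = 0.00471) in OGD against Control and -1.60 ± 0.29 (adjusted p = 0.00160) in Acacetin against Control. The lowest OGD libraries for Nos2 were 2 and 3, which also had the high 18S shares. With both left out the OGD value was -0.84 and was no longer called (adjusted p = 0.0583). The part of the 18S share in this result was not tested. Between Acacetin and OGD the difference was -0.32, with a 95% interval from -0.93 to 0.29, so a change of either sign within that interval was not resolved.

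Ass1 (ENSMUSG00000076441.10, chromosome 2) encodes argininosuccinate synthase, which joins citrulline to aspartate on the way back to arginine. Control 1 to 4 held 21.7, 20.4, 15.6 and 20.8 CPM. OGD 1 to 4 held 11.9, 8.94, 10.5 and 9.91 CPM, and Acacetin 1 to 4 held 11.8, 10.3, 7.12 and 10.3 CPM. The fall left no overlap with Control in either group.

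The log2 fold change of Ass1 was -0.93 ± 0.18 (adjusted p = 0.00190) in OGD against Control and -0.99 ± 0.18 (adjusted p = 0.00160) in Acacetin against Control. The OGD value without OGD 2 and 3 was -0.85, and the call held (adjusted p = 0.0231). Acacetin against OGD gave -0.07, with a 95% interval from -0.45 to 0.32. Asl (ENSMUSG00000025533.16, chromosome 5), which encodes the lyase of the next step, averaged 149 ± 17.2 CPM in Control, 118 ± 19.7 in OGD and 122 ± 38.2 in Acacetin, and was not called in either comparison with Control (adjusted p = 0.237 and 0.293).

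A promoter window was at hand for 5 of the 10 members (Ass1, Oaz1, Odc1, Sat1 and Sms). The 250 bases before the start of Ass1, which fell in both comparisons with Control, are shown with those of Odc1, the member with the most reads, and of Sat1, which fell in Acacetin against Control. They are from RefSeq on build GRCm38.p6, while the deposited counts were made on GRCm39. Ass1 is chr2:31470020-31470269 on the plus strand, Odc1 chr12:17544623-17544872 on the plus strand and Sat1 chrX:155216450-155216699 on the minus strand. Each runs 5′ to 3′ towards the start, and capitals mark matches on either strand to the E-box CACGTG, the GC box GGGCGG or the TATA motif TATAAA.
Ass1: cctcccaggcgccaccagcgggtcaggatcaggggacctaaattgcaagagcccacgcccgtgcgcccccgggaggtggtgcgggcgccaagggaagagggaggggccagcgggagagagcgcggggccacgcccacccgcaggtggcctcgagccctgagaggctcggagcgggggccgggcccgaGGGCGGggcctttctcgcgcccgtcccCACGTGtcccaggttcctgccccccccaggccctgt
Odc1: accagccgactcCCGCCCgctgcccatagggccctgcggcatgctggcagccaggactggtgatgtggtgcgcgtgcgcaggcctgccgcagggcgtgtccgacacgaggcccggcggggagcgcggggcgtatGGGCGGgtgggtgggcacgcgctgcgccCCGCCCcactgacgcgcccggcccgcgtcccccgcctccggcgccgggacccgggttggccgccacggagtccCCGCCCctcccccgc
Sat1: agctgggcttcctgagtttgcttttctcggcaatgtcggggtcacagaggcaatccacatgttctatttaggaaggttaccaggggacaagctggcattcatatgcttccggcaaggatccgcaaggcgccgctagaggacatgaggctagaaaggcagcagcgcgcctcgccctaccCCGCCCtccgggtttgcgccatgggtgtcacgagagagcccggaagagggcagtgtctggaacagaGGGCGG
Ass1 held 1 E-box, starting 36 bases before the start, and 1 GC box. Of all 32851 RefSeq windows of 250 bases, 6.02% hold this E-box and 32.7% the GC box. The E-box was not particular to Ass1 among the members: 1 of the 2 windows of Sms, which was called in no comparison, held it too, 196 bases before the start. Odc1 held 4 GC boxes and Sat1 held 2, and the window of Oaz1 held none of the motifs searched. The other window of Sms had 4 matches, of which those at 176, 172 and 168 bases before the start overlap in 1 stretch. G and C made up 75.6% of the Ass1 window, 80.0% of Odc1, 59.6% of Sat1 and 75.2% of this Sms window. The median over all windows was 52.4%. The letters ACGTG, 1 form of the core recognised by hypoxia-inducible factors, lie inside the E-box of Ass1 on both strands. ACGTG was found nowhere else in the 3 windows printed. The E-box of Sms holds ACGTG in the same way, and 16.6% of all windows have it. Other forms of the core were not searched, so the windows without ACGTG may hold them. TATAAA (12.4% of all windows) and the cyclic AMP element TGACGTCA (1.55%) were in none of the 3. These matches are descriptions of letters only.

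Arginase RNA was scarce. Arg1 (ENSMUSG00000019987.10, chromosome 10), the cytosolic arginase, had 46, 70, 92 and 100 reads in Control 1 to 4, which is 1.88, 2.90, 3.65 and 3.32 CPM. OGD 1 had 124 reads (3.92 CPM), and OGD 2 to 4 had 2, 7 and 17 (0.0999, 0.547 and 0.552 CPM). Acacetin 1 to 4 had 63, 17, 25 and 86 reads (2.99, 0.495, 0.687 and 2.78 CPM). Both groups thus held libraries at Control level beside libraries far below it.

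Arg1 was not called in OGD against Control (log2 fold change -1.14 ± 0.78, adjusted p = 0.302) or in Acacetin against Control (-0.78 ± 0.77, adjusted p = 0.468). The OGD value depended on which libraries were included: it was -2.87 and called with OGD 1 left out (adjusted p = 0.0104), and -0.41 and not called with OGD 2 and 3 left out (adjusted p = 0.771). Within OGD and Acacetin the order of libraries resembled that of Nos2. Acacetin 1 and 4 had the 2 highest values of both genes in their group, and OGD 1 was highest and OGD 2 lowest in theirs. Within Control the order differed: Control 3 was highest for Arg1 (3.65 CPM) and lowest for Nos2 (161 CPM). Arg2 (ENSMUSG00000021125.7, chromosome 12), the mitochondrial arginase, had 1 to 8 reads per library and 40 in all, was not tested, and no difference was detectable at this depth.

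Odc1 (ENSMUSG00000011179.9, chromosome 12) encodes ornithine decarboxylase, the first and rate-limiting enzyme of polyamine synthesis. It was the member with the most reads, 445924 over the 12 libraries. Control 1 to 4 had 1060, 1178, 1222 and 1301 CPM, and OGD 1 to 4 had 1670, 1477, 1378 and 1216 CPM. Acacetin 1 to 4 had 1892, 1393, 1178 and 1730 CPM, so each treated group had 3 libraries above the highest Control library and 1 within its range.

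Its log2 fold change against Control was 0.27 ± 0.17 in OGD (adjusted p = 0.276) and 0.38 ± 0.17 in Acacetin (adjusted p = 0.121), and neither was called by edgeR. The Acacetin value passed with DESeq2 (0.38, adjusted p = 0.0499) and without Acacetin 3 (0.49, adjusted p = 0.0459). The 95% interval of the Acacetin value ran from 0.00 to 0.75.

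Spermidine synthase and spermine synthase each add an aminopropyl group, to putrescine and to spermidine. Srm (ENSMUSG00000006442.11, chromosome 4), the spermidine synthase gene, had 715, 543, 644 and 503 CPM in Control 1 to 4 and 785, 865, 772 and 639 CPM in OGD 1 to 4. Acacetin 1 to 4 had 846, 749, 486 and 513 CPM. The OGD libraries were mostly the higher ones, with some overlap, and the Acacetin libraries spanned both groups.

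The log2 fold change of Srm was 0.35 ± 0.20 (adjusted p = 0.209) in OGD against Control and 0.11 ± 0.20 (adjusted p = 0.701) in Acacetin against Control. With a trend on gene length removed from each library, the OGD value was 0.39 ± 0.12 and was called (adjusted p = 0.0246). Sms (ENSMUSG00000071708.12, chromosome X), the spermine synthase gene, ranged from 63.8 to 86.5 CPM in Control, 71.98 to 99.9 in OGD and 63.5 to 90.9 in Acacetin. It was not called in any comparison, with log2 fold changes of 0.21 ± 0.15 in OGD and 0.15 ± 0.15 in Acacetin against Control.

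**Figure D2:**
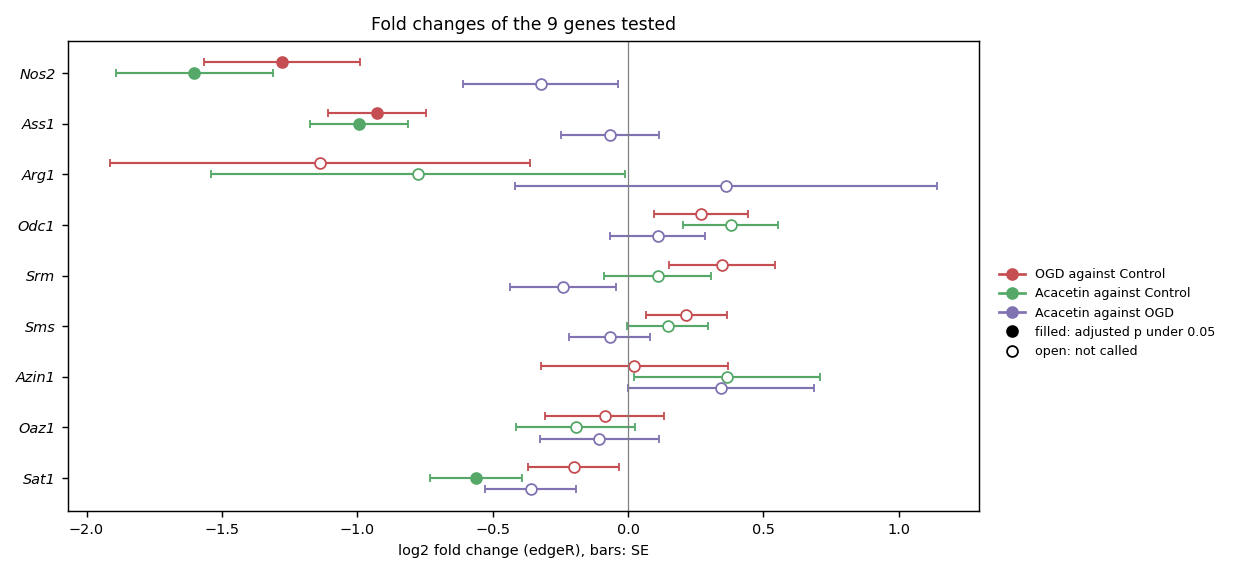
Log2 fold change (horizontal axis, bars: SE) of the 9 tested genes in the 3 comparisons, with filled points for an adjusted p under 0.05. Nos2 and Ass1 are filled in both comparisons with Control and Sat1 in Acacetin against Control, and no point is filled in Acacetin against OGD.

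Antizyme, the product of Oaz1, binds ornithine decarboxylase and directs it to the proteasome when polyamines are plentiful, and antizyme inhibitor, the product of Azin1, is an inactive relative of the decarboxylase that captures antizyme. Oaz1 (ENSMUSG00000035242.16, chromosome 10) averaged 707 ± 111 CPM in Control, 666 ± 114 in OGD and 619 ± 209 in Acacetin. Azin1 (ENSMUSG00000037458.16, chromosome 15) averaged 25.6 ± 7.20, 26.0 ± 7.82 and 32.9 ± 16.7 CPM. Neither was called in any comparison, and the Azin1 value in OGD against Control (0.02) took the other sign under DESeq2 (-0.0045) and on FPKM.

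The 2 genes varied in opposite directions between libraries of the same group. Acacetin 1 had the highest Oaz1 level (909 CPM) and the lowest Azin1 level (12.3 CPM) of all 12 libraries, and Acacetin 3 the lowest Oaz1 (437 CPM) and the highest Azin1 (52.5 CPM). The deposited FPKM imply gene lengths of 3000 bases for Oaz1 and 7349 for Azin1, and these 2 libraries are the ends of the slope on gene length. Over the 12 libraries log2 CPM of Azin1 correlated with that slope at r = 0.915 (permutation p = 4e-05, rho = 0.846 with p = 0.00082) and Oaz1 at r = -0.938 (permutation p = 2e-05, the smallest that 100000 resamples give, rho = -0.907 with p = 0.0001).

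Without the 2 libraries farthest from the median slope the correlations were 0.861 for Azin1 and -0.873 for Oaz1, and on deviations from the group means 0.917 and -0.935. Of 9 members tested this way, Srm (r = -0.743, adjusted p = 0.0207, rho = -0.769 with an adjusted p of 0.0164) also passed after Benjamini-Hochberg adjustment, where Azin1 and Oaz1 had 0.00018 for r, and 0.00369 and 0.0009 for rho. This adjustment was over the 9 members only. The permutations moved libraries freely across the 3 groups, so their p-values also take in differences between groups. No p-value was computed on deviations from the group means. The slope was itself fitted to log2 CPM of the tested genes, these members included. The share of all genes that follow it as closely was not computed. Passing is therefore not shown to be particular to these members. For Nos2 (r = -0.128, rho = -0.021) and Ass1 (r = -0.358, rho = -0.315) the adjusted p for r was 0.782 and 0.395. Implied lengths were 1881 bases for Srm, 5158 for Nos2 and 2818 for Ass1. The rest were Sms (7066 bases, r = 0.325), Odc1 (3992, -0.328), Sat1 (3259, -0.607) and Arg1 (2571, -0.0756), which did not pass. The cause of these correlations was not tested.

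**Figure D3:**
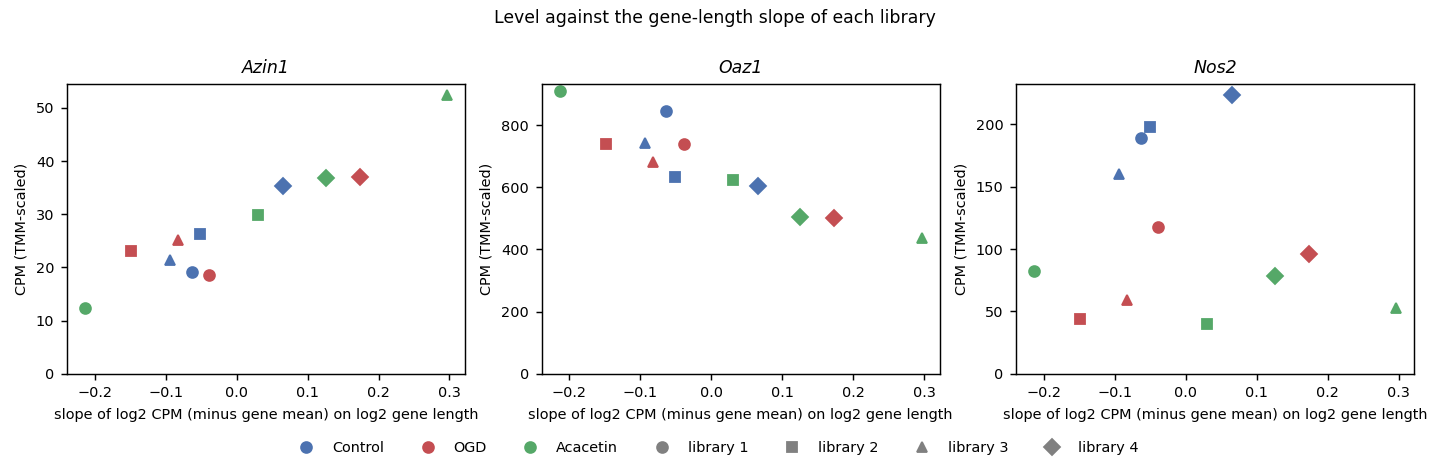
CPM of Azin1, Oaz1 and Nos2 (vertical axes) against each library's slope on gene length (horizontal axis, log2 CPM minus the gene's mean per log2 of length), with colours for groups and shapes for libraries 1 to 4. Azin1 climbs from 12.3 to 52.5 CPM and Oaz1 drops from 909 to 437 CPM between the ends of the slope, while the 4 Control points of Nos2 lie above all others and its OGD and Acacetin points overlap.

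Sat1 (ENSMUSG00000025283.16, chromosome X) encodes the acetyltransferase that starts the breakdown and export of spermidine and spermine. Control 1 to 4 had 219, 286, 286 and 298 CPM, OGD 1 to 4 had 235, 285, 261 and 166 CPM, and Acacetin 1 to 4 had 205, 197, 173 and 164 CPM. All 4 Acacetin libraries were below all 4 Control libraries, and the OGD libraries overlapped both. Groups of 4 did not overlap for 3 of the 9 tested members in Acacetin against Control (Nos2, Ass1 and Sat1) and for 2 in OGD against Control, beside 25.7% and 36.0% of all genes. In Acacetin against OGD this held for 0 of 9, beside 2.35%.

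In Acacetin against Control the fold change of Sat1 was -0.56 ± 0.17 on the log2 scale (adjusted p = 0.0251). In OGD against Control it was -0.20 ± 0.17 (adjusted p = 0.409). Acacetin against OGD gave -0.36 ± 0.17, with a 95% interval from -0.72 to 0.0015 and an adjusted p of 0.8287. The call against Control was lost without Control 2 (adjusted p = 0.0677), Control 3 (0.0594), Control 4 (0.0545) or Acacetin 4 (0.0704), and with limma on log2(FPKM + 1) (0.0656). The log2 fold change in these settings lay between -0.41 and -0.54.

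Ratios between members within a library do not depend on how libraries are scaled to each other, and are given here as descriptions with no test. Of 7 ratios computed, 2 did not overlap Control in OGD and 3 in Acacetin. The share of other gene pairs that would not overlap was not computed, so a lack of overlap is not shown to be particular to these pairs. The ratio of Srm to Oaz1 in FPKM was 1.33 to 1.39 in the 4 Control libraries, 1.70 to 2.04 in OGD and 1.49 to 1.92 in Acacetin. This ratio was thus higher in all 8 OGD and Acacetin libraries than in any Control library. Neither gene was itself called by edgeR in OGD or Acacetin against Control (adjusted p = 0.209 and 0.701 for Srm, 0.813 and 0.531 for Oaz1). The ratio of Odc1 to Sat1, the entry to synthesis over the entry to breakdown, was 3.36 to 3.94 in Control, 4.22 to 5.96 in OGD and 5.55 to 8.62 in Acacetin, again with no overlap with Control.

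Odc1 to Oaz1 overlapped between groups, from 0.940 to 1.62 in Control, 1.50 to 1.83 in OGD and 1.56 to 2.58 in Acacetin. Azin1 to Oaz1 spanned 0.00554 to 0.0491 within Acacetin alone, where the slope on gene length also had its widest range. Nos2 to Ass1 was 4.72 to 5.84 in Control, 2.68 to 5.401 in OGD and 2.11 to 4.17 in Acacetin, so that Acacetin lay below Control and OGD overlapped it. Srm to Sms overlapped in all groups, from 21.9 to 42.1 in Control, 32.5 to 38.1 in OGD and 20.1 to 50.1 in Acacetin. So did Odc1 to Srm, from 0.696 to 1.21, 0.802 to 0.999 and 0.874 to 1.58.

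**Figure D4:**
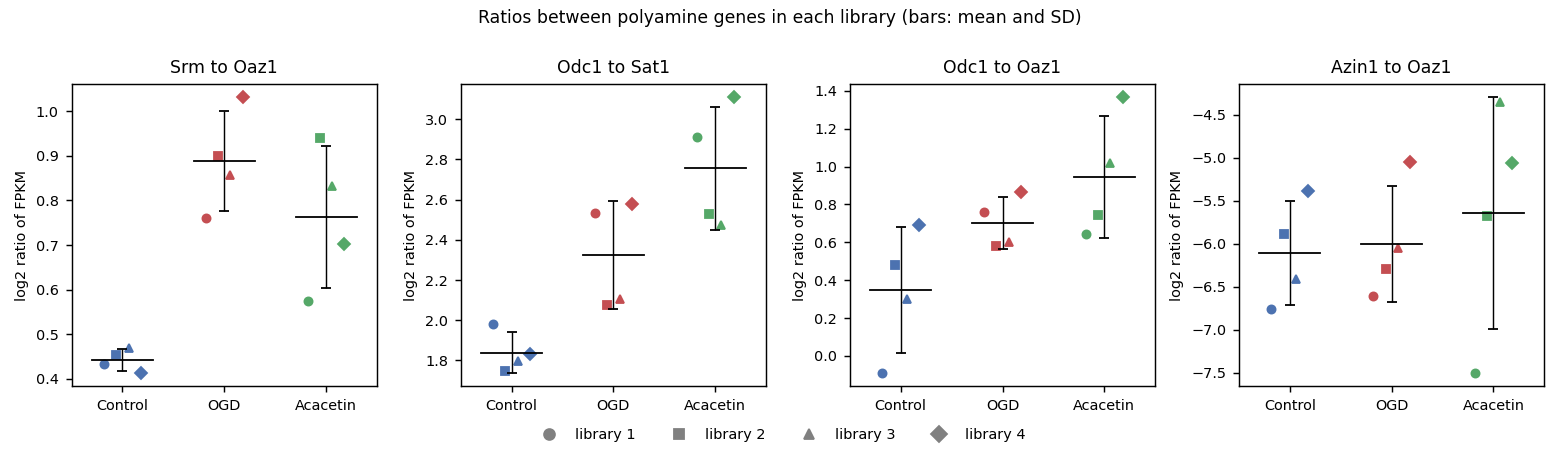
Log2 ratio of FPKM (vertical axes) for 4 pairs of polyamine genes in each library, with bars for the mean and SD of 4 libraries. The Control points lie apart from the others for Srm to Oaz1 (1.33 to 1.39 as a plain ratio) and Odc1 to Sat1 (3.36 to 3.94), and overlap them for the other 2 pairs.

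The wider pathway was read from a list of 49 other genes, of which 37 were tested. In OGD against Control 5 were called higher and 8 lower and 24 were not called, and in Acacetin against Control 5 higher, 9 lower and 23 not called. The share called was 35.1% and 37.8%, beside 28.8% and 26.9% of all genes, and the list's median log2 fold change was 0.10 and -0.01. In Acacetin against OGD 0 were called by edgeR and by DESeq2, with 1 at an unadjusted p under 0.05 in edgeR, beside 685 of all 13249 genes. It was Nos1, with a log2 fold change of -0.74 (unadjusted p = 0.00749, adjusted p = 0.797). Groups of 4 did not overlap in that comparison for 2 of the 37 list genes (Nos1 and Slc7a8), beside 2.35% of all genes. On FPKM with limma the OGD count was 0 higher and 8 lower. Over all genes the same step took the higher share of calls from 56.3% to 32.2%, and the rises named below were calls of the count tests alone in that comparison.

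Cationic and neutral amino acid transporters gave 3 rises and 1 fall among 7 in each comparison with Control. Over all genes 16.2% were called higher and 12.6% lower in OGD, and 14.0% and 12.9% in Acacetin. Slc7a1 (ENSMUSG00000041313.15, chromosome 5), the main arginine importer of many cells, averaged 27.6 ± 1.68 CPM in Control, 49.1 ± 13.4 in OGD and 48.6 ± 10.6 in Acacetin (log2 fold changes 0.83 ± 0.19 and 0.82 ± 0.19, adjusted p = 0.00557 and 0.00738, the second 0.0819 with limma on log2(FPKM + 1)). Slc7a6 (ENSMUSG00000031904.6, chromosome 8), an exchanger of arginine for neutral amino acids, rose by 0.75 and 0.81 on the log2 scale, from 25.6 ± 1.52 CPM in Control to 43.2 ± 4.61 in OGD and 45.0 ± 4.74 in Acacetin. Slc7a5, a carrier of large neutral amino acids, rose by 0.62 and 0.49. Its Acacetin call was lost without Control 2 (adjusted p = 0.116), Control 3 (0.104), Control 4 (0.0588) or Acacetin 2 (0.144), and with only the 8 libraries compared (0.0840), at log2 fold changes between 0.35 and 0.50.

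Slc7a7 (ENSMUSG00000000958.11, chromosome 14), which carries arginine out of cells, was the fall, from 9.94 ± 0.597 CPM to 6.02 ± 1.15 in OGD (adjusted p = 0.0173) and 4.95 ± 1.10 in Acacetin (adjusted p = 0.00327). The OGD call was lost without OGD 2 (adjusted p = 0.0551) and without OGD 2 and 3 (0.112), where the log2 fold change was -0.65 and -0.61 against -0.72 with all libraries. Slc7a2, the arginine carrier known to be induced in activated macrophages, averaged 5.71 ± 0.663 CPM in Control, 8.13 ± 2.15 in OGD and 8.13 ± 2.82 in Acacetin and was not called (adjusted p = 0.171 and 0.161).

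Of 6 tested genes for other nitric oxide synthases and their cofactor tetrahydrobiopterin, 2 fell in OGD and 3 in Acacetin against Control, and 0 rose. Beside these, 12.6% and 12.9% of all genes were called lower, and 16.2% and 14.0% higher. Gchfr (ENSMUSG00000046814.4, chromosome 2), which encodes the feedback regulator of the first enzyme of cofactor synthesis, had the largest fold change of the list: 38.6 ± 4.90 CPM in Control, 6.99 ± 2.54 in OGD and 7.76 ± 4.58 in Acacetin (log2 fold changes -2.46 ± 0.34 and -2.33 ± 0.34, adjusted p = 0.000259 and 0.000541). Gch1 (ENSMUSG00000037580.11, chromosome 14), the gene of that first enzyme, averaged 196 ± 9.01 CPM in Control, 129 ± 21.9 in OGD (log2 fold change -0.60, adjusted p = 0.0414) and 111 ± 40.6 in Acacetin (-0.82, adjusted p = 0.0104).

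The Gch1 call in OGD was lost when any of these was left out: Control 1 (adjusted p = 0.0925), Control 2 (0.0811), Control 3 (0.0676), library 2 of OGD (0.0886), library 3 (0.0516), library 4 (0.108) or libraries 2 and 3 together (0.136). It was also lost with the length trend removed (0.0833). The log2 fold change in these settings lay between -0.64 and -0.50, close to that with all libraries. Pts, Spr and Qdpr, the later steps of cofactor synthesis and its recycling, were not called. Nos1, the neuronal synthase gene, averaged 4.12 ± 0.622 CPM in Control, 3.26 ± 0.799 in OGD and 1.95 ± 0.211 in Acacetin, and was called in Acacetin against Control (log2 fold change -1.07 ± 0.24, adjusted p = 0.00505, and 0.10 with limma on log2(FPKM + 1)). Nos3, the endothelial synthase gene, had 0 to 2 reads per library and was not tested.

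Ddah2 (ENSMUSG00000007039.13, chromosome 17), from a family known for clearing methylated arginines that inhibit nitric oxide synthases, rose from a low 0.557 ± 0.0547 CPM to 1.22 ± 0.302 in OGD (adjusted p = 0.0102) and 1.17 ± 0.329 in Acacetin (adjusted p = 0.0155, but 0.0607 at a log2 fold change of 0.85 without Acacetin 2, against 1.07 with it). Its libraries held 12 to 57 reads.

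Azin2 (ENSMUSG00000028789.17, chromosome 4), a second antizyme inhibitor, was listed with the genes of arginine and ornithine metabolism. It fell from 20.1 ± 1.82 CPM to 5.99 ± 2.21 in OGD and 8.19 ± 4.19 in Acacetin (log2 fold changes -1.74 ± 0.32 and -1.30 ± 0.31, adjusted p = 0.00134 and 0.00834). Pycr1, which makes proline, fell by 1.38 and 1.32 on the log2 scale. Gamt, the last step of creatine synthesis, fell by 1.00 and 0.94. The Gamt call was lost in OGD without Control 1 (adjusted p = 0.0511) or without OGD 2 and 3 (0.0859), and in Acacetin without Control 1 (0.0720), Control 2 (0.0503), Acacetin 2 (0.0725) or Acacetin 4 (0.0685) and with only the 8 libraries compared (0.0551). Its log2 fold change in these settings was -1.03 and -0.91 in OGD and between -0.97 and -0.85 in Acacetin.

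Oat, the mitochondrial ornithine aminotransferase gene, averaged 103 ± 10.6 CPM in Control and rose to 138 ± 22.1 in OGD (by 0.42 ± 0.13 on the log2 scale, adjusted p = 0.0311) and averaged 117 ± 7.88 CPM in Acacetin (adjusted p = 0.336). The OGD call was lost without Control 1 (adjusted p = 0.0951), Control 2 (0.0511), Control 3 (0.0793) or OGD 2 (0.106), and without OGD 2 and 3 (log2 fold change 0.24, adjusted p = 0.206).

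Of 9 tested list genes of polyamine metabolism, 0 were called higher and 2 lower in OGD against Control (22.2%, beside 28.8% of all genes), and 1 higher and 2 lower in Acacetin against Control (33.3%, beside 26.9%). The falls were Sat2 and Paox in both. Azin2, listed with the arginine and ornithine genes, is not in these counts. Sat2 (ENSMUSG00000069835.11, chromosome 11), a relative of Sat1, went from 15.4 ± 0.994 CPM to 3.99 ± 1.57 in OGD and 4.94 ± 2.96 in Acacetin (log2 fold changes -1.94 ± 0.35 and -1.65 ± 0.35, adjusted p = 0.00121 and 0.00382). Paox (ENSMUSG00000025464.16, chromosome 7), the oxidase of acetylated polyamines, went from 56.1 ± 4.56 CPM to 26.2 ± 4.30 and 28.0 ± 9.72 (-1.10 ± 0.20 and -1.0045 ± 0.20, adjusted p = 0.00143 and 0.00307). Smox, the spermine oxidase gene, averaged 108 ± 8.71, 95.8 ± 27.6 and 106 ± 39.8 CPM in Control, OGD and Acacetin and was not called.

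Amd1 (ENSMUSG00000075232.7, chromosome 10), which encodes the decarboxylase that supplies aminopropyl groups to Srm and Sms, averaged 5.95 ± 0.868 CPM in Control, 8.60 ± 2.45 in OGD and 13.3 ± 8.18 in Acacetin. It was called in Acacetin against Control (log2 fold change 1.16 ± 0.38, adjusted p = 0.0366) although its libraries overlapped Control, from 4.23 CPM in Acacetin 1 to 23.8 in Acacetin 3, the ends of the length slope. The call was lost without Control 1 (adjusted p = 0.0917), Control 2 (0.0975), Control 3 (0.0611), Control 4 (0.0710), Acacetin 2 (0.0522), Acacetin 3 (0.126) or Acacetin 4 (0.0749), with only the 8 libraries compared (0.0661) and with limma on log2(FPKM + 1) (0.145). The log2 fold change was 0.73 without Acacetin 3 and between 0.79 and 1.30 in the other settings named. Amd2, a close copy of Amd1, had 0 to 2 reads per library, and how shared reads were divided is uncertain. Of the hypusine genes, Eif5a encodes a translation factor, Dhps the enzyme that modifies it with spermidine and Dohh the enzyme that completes the modification. These genes were not called.

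**Figure D5:**
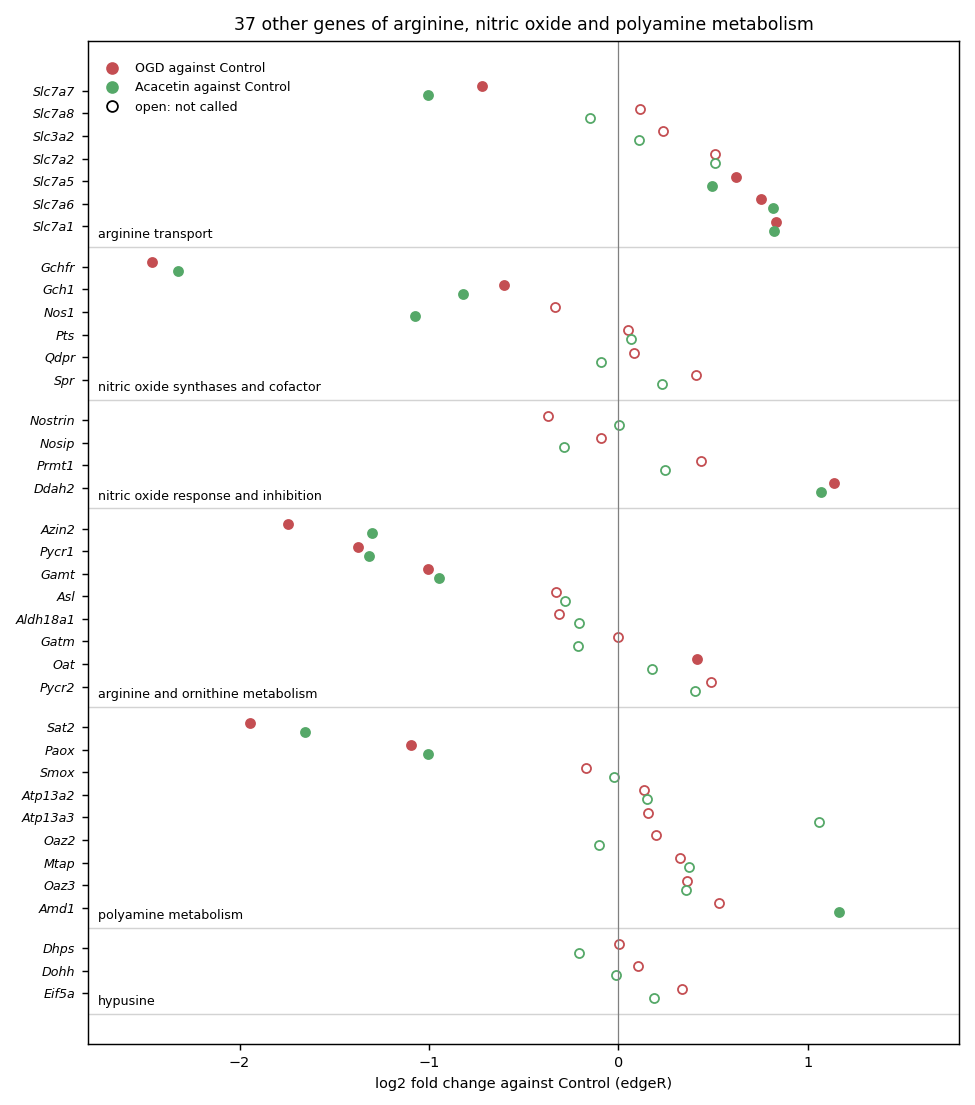
Log2 fold change against Control (horizontal axis) of the 37 tested list genes, grouped by role, for OGD and for Acacetin, with filled points for an adjusted p under 0.05. Both comparisons share the Control libraries. Gchfr lies farthest to the left (-2.46 and -2.33), and the transporters Slc7a1, Slc7a5 and Slc7a6 lie to the right in both.

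Genes whose pattern was most like 3 of the members were found by Pearson's r of log2 CPM over the 12 libraries, among 9445 named genes averaging 2 CPM or more. The 12 values share group differences and library quality, and r is a description. For Nos2 they were Ctdsp2 (r = 0.968), Sdc3 (0.968) and Zfp362 (0.967). Sdc3, a cell surface proteoglycan gene, averaged 134 CPM in Control, 61.6 in OGD and 46.9 in Acacetin. For Odc1 they were Mcl1 (0.927), Ensa (0.910) and Slc31a2 (0.888), and for Sat1 they were Mthfsl (0.961), Nupr1 (0.932) and Rps10 (0.927). With 2 measures added after the data were seen, deviations from the group means and log2(FPKM + 0.1), r was between 0.809 and 0.936 and between 0.871 and 0.981 for these 9 genes. The genes were picked by r in the same 12 libraries, so these values depend on that choice and are no separate support.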

How the data were processed

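Messenger RNA of 12 BV2 samples was made into stranded libraries and read in pairs, per the labels' protocols. Per the submitters' processing notes, bcl2fastq, HISAT2, DESeq2 and build GRCm39 were used. The sources used here do not give versions, counter, annotation or strand handling. The deposited count table holds whole reads per gene for 24934 genes, and the authors' deposited FPKM values cover 24728 genes. All columns matched a library (0 unmatched).

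Counts were tested with edgeR 4.0.16 (R 4.3.3): filterByExpr by group (minimum count 10, total 15) kept 13249 genes, TMM scaling was used, and all 12 libraries entered 1 quasi-likelihood fit with 3 two-sided contrasts. SE is the log2 fold change over the root of its F, and intervals are 95%. Members are genes whose symbol matched, and list genes are named where called. Asl, Slc7a2, Nos3, Amd2, Smox, Pts, Spr, Qdpr and the hypusine genes were named after their values were seen, as neighbouring steps. The likest 3 genes were taken by Pearson's r. The members, lists and alternatives were chosen with earlier results of these data known. Alternatives were DESeq2 1.42.0 and its size factors, other filters, limma 3.58.1 on log2(FPKM + 1 or 0.1), the replicate block, length-trend removal (lowess span 0.5), and leaving out libraries. Scripts were tested on simulated data.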

Additional observations from a re-analysis of the deposited data

Results flagged for a closer look

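In 6 of 75 groups of 4 libraries (members and named list genes), the gap between 1 library and the rest passed Dixon's 95% limit, where chance flags about 1 in 20 groups. Arg1 was 3.92 CPM in OGD 1 and 0.0999 to 0.552 in the other OGD libraries. Sat1 was 219 CPM in Control 1 and 286 to 298 in the other Control libraries. Slc7a1 was 69.1 CPM in OGD 4 against 40.6 to 43.8 in the rest of its group, and 32.7 CPM in Acacetin 1 against 53.5 to 54.4. Ddah2 was 1.66 CPM in Acacetin 2 against 0.937 to 1.05, and Paox 62.9 CPM in Control 1 against 53.1 to 54.3. The cause of these gaps was not tested.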

How the results depend on the processing

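Of 981 log2 fold changes of members and named list genes recomputed under the alternatives, 883 kept their direction and their side of the threshold, 60 lost a call, 4 gained one and 34 changed sign. In OGD against Control 2 members were called, 2 to 3 when 1 library was left out, and 1 without OGD 2 and 3 (Ass1). List calls went from 13 to 8 with limma on log2(FPKM + 1) or log2(FPKM + 0.1), and to 10 to 13 when 1 library was left out. In Acacetin against Control 3 members were called, 2 to 4 when 1 library was left out, and 14 list genes, 10 to 19. Over all genes, calls went from 3813 to 2010 without OGD 2 and 3, from 3559 to 5818 without Acacetin 1, and in Acacetin against OGD from 0 to 30 with DESeq2, 8 with no filter, 4 with the length trend removed, 4 without Acacetin 1 and 3, 1 with only the 8 libraries compared and 9 without Acacetin 1.

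Sign changes were all in values not called. In OGD against Control Azin1 was -0.0045 with DESeq2, -0.0059 with its size factors, -0.0943 and -0.1316 on FPKM with 1 or 0.1 added, -0.0297 with the length trend removed, and -0.20 to 0.21 when 1 library was left out. Oaz1 was -0.181 to 0.0292 when 1 library was left out. In Acacetin against OGD the 2 FPKM settings gave 0.0019 and 0.015 for Nos2, 0.16 and 0.21 for Ass1, 0.0216 and 0.0217 for Srm, 0.21 and 0.22 for Sms, and 0.146 and 0.147 for Oaz1. With 0.1 added the median of all genes moved from -0.02 to 0.24 in that comparison, from 0.03 to -0.11 in OGD against Control and from 0.08 to 0.17 in Acacetin against Control. Without OGD 2 and 3, Arg1 was -0.32, Sms 0.15 and Oaz1 0.0309, and Sms was 0.0034 with only the 8 libraries compared. Leaving out 1 library gave -0.160 to 0.064 for Ass1, -0.04 to 2.09 for Arg1, -0.0013 to 0.22 for Odc1, -0.138 to 0.0319 for Sms and -0.352 to 0.0291 for Oaz1 there, and -0.0454 to 0.226 for Srm in Acacetin against Control. The cause of these shifts was not tested.

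Whether the replicate numbers pair the libraries was not settled. Deviations of same-numbered libraries correlated at -0.29 to 0.51. Libraries numbered 4 correlated best with their own number in all 3 comparisons (0.51, 0.38 and 0.40). Those numbered 3 did so in no comparison (0.07, -0.12 and -0.29), and those numbered 1 and 2 in some only. With the replicate block 2, 0 and 3 members were called in the 3 comparisons, as without it, and 15, 0 and 14 list genes. Over all genes the block called 4572, 2 and 4279, beside 3813, 0 and 3559 without it.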
